A study of Mus musculus with 13 samples.

Results

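Chemokines and the atypical receptors that bind them without signaling through G proteins were described in fibroblasts of the mouse mammary gland. The set was fixed by symbol and named 32 genes, of which 31 were listed in the deposited matrices among 32245 gene symbols; Cxcl11 was not listed. A member was called expressed where at least 10 unique molecular identifiers (UMIs, counts of captured mRNA molecules) fell on it over the fibroblasts of a library. By that rule 28 members were expressed, comprising 10 CXC ligands, 14 CC ligands, the CX3C ligand Cx3cl1 and the 3 atypical receptors Ackr2, Ackr3 and Ackr4. Cxcl15, Cxcl17 and Ccl22 were not.

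The study profiled sorted stromal cells of female mice by droplet single-cell RNA-seq (10x Chromium 3′), in 13 libraries. Wild-type C57BL/6 glands gave Lineage-negative, CD24-negative cells at 4 weeks by the labels (puberty), at 9 weeks (adult virgin), at 14.5 days of pregnancy, at lactation day 10 and after 4 days of involution, with 1 library and 2 pooled females per stage; the study's methods give pubertal mice a slightly higher age than that label. The same sort of 9-week wild-type C57BL/6 mice gave 2 placebo libraries and 2 libraries after MPA+E, the progestin medroxyprogesterone acetate with estrogen, again with 2 females per library. GFP+ cells were sorted from raGFP-Wnt1 mice of the genotype Pdgfra-GFP KI/+ MMTV-Wnt1 T/+ on a mixed C57BL/6 FVB background (the study's methods give the MMTV-Wnt1 strain as FVB/NJ), in which the MMTV promoter drives Wnt1 in the mammary epithelium and GFP marks Pdgfra-positive stroma. Hyperplastic gland and tumor came from the same mouse, mouse 1 at 45 weeks and mouse 2 at 17 weeks. No label tied the 2 hormone libraries of a group to separate experiments, so p-values measured only the spread between these libraries.

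Chemokines are small secreted proteins that direct the movement of leukocytes through receptors on the target cell, and stromal cells are a major source of them. Some are made at rest and place lymphocytes and other cells in a tissue, while others are induced through NF-κB or interferon signaling. The atypical receptors take up chemokines and so lower the amounts outside the cell.

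Fibroblast barcodes were those with 500 to 7500 genes, at most 10% mitochondrial UMIs, at least 50 UMIs of Dcn, Lum and Col1a2 per 10000 UMIs, and no UMI of Epcam, Pecam1, Rgs5, Sox10, Ptprc or Myog. They numbered 100523 of 120355 barcodes, 4236 to 11951 per library, with a median of 3990 to 20256 UMIs per cell and 47521842 to 102522735 UMIs per library. Levels are given as counts per 1000000 UMIs over these fibroblasts (CPM). Because the 3′ protocol counts molecules, CPM was compared between genes, but only roughly, since the share of molecules counted may differ between genes. In sums over fibroblasts, fewer cells of a kind and less RNA per cell cannot be told apart. The summed level of 6 macrophage markers was 1.6 to 10.3 CPM and that of 5 lymphocyte and dendritic markers 0.198 to 13.1 CPM, while 5 fibroblast markers summed to 20941 to 40482 CPM. The puberty, adult and pregnancy libraries stood apart from the 10 other libraries: 8 genes were at least 3-fold lower in all of them than in any other library with at least 5 CPM there, and 0 genes were higher by that rule. No chemokine gene was among the 8, but Cebpb, a transcription factor gene of inflammatory responses, was, at 48.5 to 60.8 CPM against 454 to 1129 CPM. Whether these 3 libraries were prepared or sequenced together is not given in the sources used here. The adult library and the placebo libraries had the same age, strain and sort, yet Ccl2 was at 122 CPM in the former and at 751 and 1053 CPM in the latter, and Ccl11 at 135 CPM against 425 and 418 CPM.

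The members lay mainly in a few gene clusters. In GRCm38, the build of the deposited matrices and of the annotation, Cxcl5, Cxcl3, Cxcl15, Cxcl1 and Cxcl2 lay in that order on chromosome 5, from 90759360 to 90905938, and Cxcl9 and Cxcl10 further along, from 92321347 to 92348889. Ccl2, Ccl7, Ccl11 and Ccl8 lay together on chromosome 11, from 82035571 to 82116799. Cxcl14 lay alone on chromosome 13, at 56288643 to 56296551 on the minus strand. RefSeq promoter windows (GRCm38.p6) were matched for 22 member genes, and 250 bases upstream of the start were searched on both strands for a κB-type motif, GGGAA followed directly by TTTCC, and an interferon-response-type motif, GAAA and GAAA with 2 bases of any kind between them. The first was found in 0.0852% of 32851 promoters, 28 in all, and in 3 member promoters, those of Cxcl3, Cxcl1 and Cxcl2 on chromosome 5, shown because it was found in no other of the member promoters matched. Cxcl5, Cxcl16, Cxcl17, Ccl2, Ccl4, Ccl5, Ccl7, Ccl11 and Ccl24 were not searched. Each stretch is printed 5′ to 3′ on the plus strand with the motif in capitals, at chr5:90786018-90786047, chr5:90891164-90891193 and chr5:90903792-90903821.
Cxcl3: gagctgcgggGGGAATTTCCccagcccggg
Cxcl1: cctgtactccGGGAATTTCCctggcccgga
Cxcl2: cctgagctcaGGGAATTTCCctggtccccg
The motif began 73, 71 and 97 bases upstream of the start in Cxcl3, Cxcl1 and Cxcl2. The second motif was found in 2.98% of promoters and in 3 member promoters, those of Cxcl10, Ccl19 and Cxcl14, all minus-strand genes, printed 5′ to 3′ on the minus strand at chr5:92349083-92349112, chr4:42756554-42756583 and chr13:56296704-56296733.
Cxcl10: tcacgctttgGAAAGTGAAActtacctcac
Ccl19: ttttgggacaGAAAGTGAAAgctcaaggca
Cxcl14: gtgtccacagGAAACAGAAAagcagcaccc
The Ccl19 stretch lies upstream of the RefSeq start, but in the annotation the gene runs to 42756577 and so overlaps it. The stretches describe the letters in these windows and are no evidence of a bound factor.

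The 28 expressed genes differed widely in level. Cxcl1, a ligand of CXCR2 that attracts neutrophils, was the highest by median over the 13 libraries, at 1250 CPM with a range of 543 to 2401 CPM. It was followed by Ackr3, an atypical receptor that takes up Cxcl12, with a median of 430 CPM and a range of 91.8 to 634 CPM. Ccl11, the eosinophil attractant eotaxin, had a median of 418 CPM. Ccl2 and Ccl7, attractants of monocytes through CCR2, had medians of 406 and 393 CPM. The other members among the 12 highest were Cxcl10 (339 CPM) and Cxcl9 (92.4 CPM), interferon-induced ligands of CXCR3, Cxcl12 (273 CPM), the ligand of CXCR4, Cxcl14 (197 CPM), a chemokine made at rest in epithelium and stroma, Cxcl13 (81.7 CPM), a B-cell attractant, Ccl8 (74.1 CPM) and Cxcl2 (62.0 CPM). Neighbors in this order overlapped widely in their ranges over libraries. Ccl25, an attractant of gut-homing T cells named after its values were seen, varied least, between 5.35 and 8.16 CPM in the 13 libraries. At the other end Ccl3, Ccl4, Ccl6, Ccl20 and Ccl24 stayed at or below 2.13 CPM in every library. The summed level of the members ran from 3053 CPM in pregnancy to 7670 CPM in the tumor of mouse 2.

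**Figure D1:**
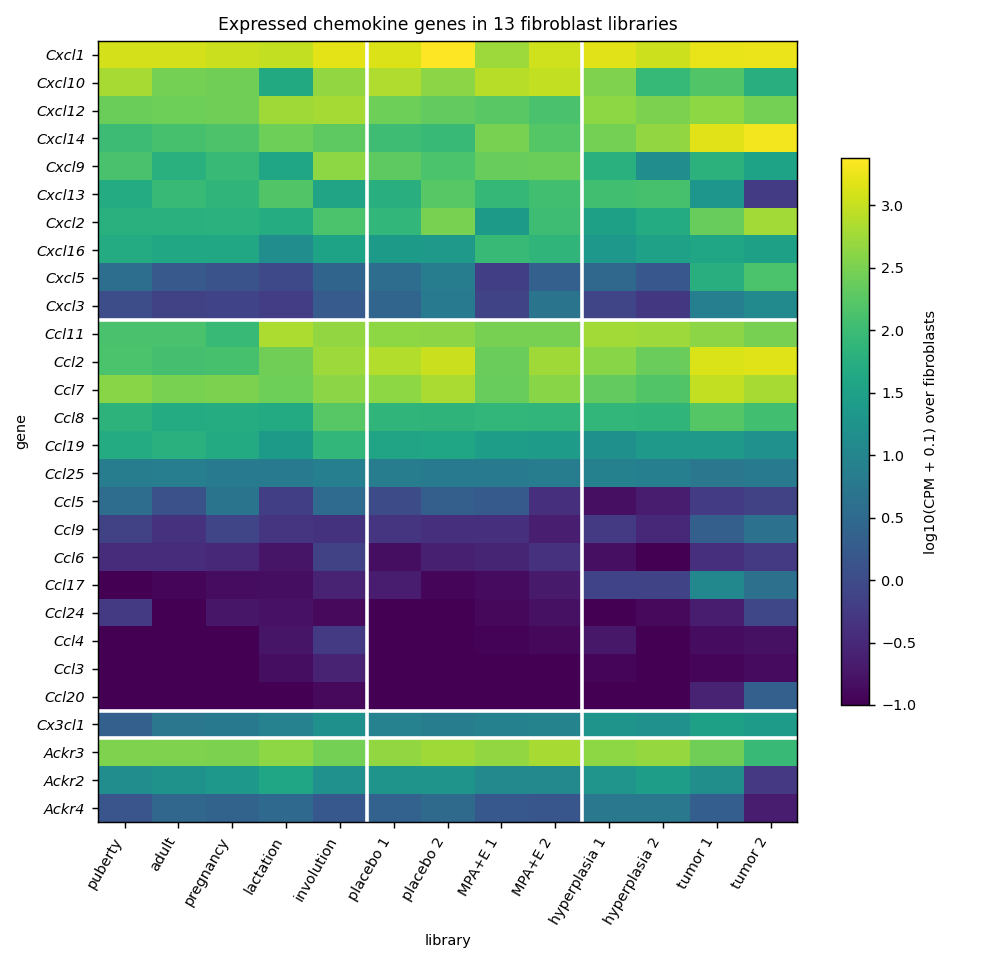
Levels of the 28 expressed chemokine genes (rows, grouped by family and ordered by median) in 13 libraries (columns), as log10 of CPM over fibroblasts plus 0.1. Cxcl1 is the brightest row in most libraries, and Cxcl14, Ccl2 and Cxcl5 are brightest in the tumor columns.

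The first comparison asked how the chemokine profile differed between the stages of postnatal development. Each stage was 1 library, so no test was made, intervals are exact 95% Poisson intervals that cover counting error only, and a difference was called at 2-fold or more between neighboring stages with at least 100 UMIs in the higher library. Between lactation and involution, 10 of 21 members with enough UMIs were at least 2-fold higher, where 2.78% of all genes were, and 3 at least 2-fold lower, where 1.45% of all genes were (4.23% in either direction), and the median ratio was 1.78 over these members and 0.919 over all genes. Between pregnancy and lactation 4 of 19 were higher and 4 lower (6.89% and 3.69% of all genes, 10.6% in either direction). Between puberty and adult 2 of 20 were higher and 4 lower (1.41% and 1.74% of all genes, 3.15% in either direction). Between adult and pregnancy 1 of 20 was higher, Ccl5, and none lower (1.7% and 0.405% of all genes, 2.1% in either direction). The lactation library differed from the 3 earlier stages in the Cebpb level given above as well, so that the step from pregnancy to lactation runs across that split, whose part in these differences was not tested. The step from lactation to involution lies on 1 side of it.

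Among the interferon-induced ligands, Cxcl9 was at 131 CPM (interval 128 to 134) in puberty, 60.9 (59.1 to 62.7) in adult, 92.4 (89.7 to 95.2) in pregnancy, 38.9 (37.4 to 40.5) in lactation and 436 (431 to 440) in involution. Cxcl10 was at 638, 297, 267, 45.4 and 459 CPM in the same order. Both were lowest in lactation, and involution over lactation gave a ratio of 11.2 (interval 10.7 to 11.7) for Cxcl9 and 10.1 (9.73 to 10.5) for Cxcl10. Cxcl16, a membrane-bound ligand of CXCR6, was also lowest in lactation, with 50.1, 43.0, 42.2, 13.9 and 34.0 CPM.

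Among the CXCR2 ligands, Cxcl1 was at 1250, 1229, 1086, 958 and 1591 CPM from puberty to involution and passed 2-fold at no step. Cxcl2 was at 60.2, 60.9, 62.0, 52.4 and 140 CPM, a ratio of 2.66 (interval 2.56 to 2.77) for involution over lactation. Cxcl3 and Cxcl5 were far lower, Cxcl3 between 0.524 and 1.70 CPM and Cxcl5 between 0.825 and 3.65 CPM, and both were at least 3-fold higher in involution than in lactation. Ccl2, which attracts monocytes, was at 139, 122, 127, 272 and 558 CPM. It was higher at each of the last steps, with ratios of 2.14 (interval 2.08 to 2.21) and 2.05 (2.02 to 2.09). Ccl8 was at 68.1, 49.1, 50.5, 47.5 and 173 CPM, so that involution stood above every other stage, and Ccl7 stayed between 260 and 409 CPM.

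Ccl11 was the member with the highest ratio of lactation over pregnancy among those called, from 90.2 (interval 87.5 to 92.9) to 688 CPM (682 to 695), a ratio of 7.63 (7.39 to 7.87). It was at 132 and 135 CPM in puberty and adult and at 474 CPM in involution. Cxcl12 was at 252, 257, 273, 564 and 614 CPM, 2.07-fold higher (interval 2.03 to 2.11) in lactation than in pregnancy. Cxcl13 was at 49.8, 91.5, 73.1, 158 and 35.8 CPM, highest in lactation and 0.226-fold of that (interval 0.217 to 0.236) in involution. Ccl19, a CCR7 ligand that guides T cells and dendritic cells, showed the opposite of Cxcl13 over these last stages, with 24.3 CPM in lactation and 80.4 CPM in involution, after 49.3, 60.9 and 48.1 CPM. Ccl19 has a pair of near-identical gene rows in the matrices that were summed, so reads may have been lost between the copies and its level is uncertain. Cxcl14 lay between 101 and 256 CPM and passed 2-fold at no step. Ccl5, a T-cell attractant, was at 3.59, 1.10, 4.76, 0.555 and 3.26 CPM, and Cx3cl1, a membrane-bound ligand of CX3CR1, at 2.11, 5.34, 5.79, 8.71 and 15.5 CPM.

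Of the atypical receptors, Ackr2, which takes up inflammatory CC chemokines, was at 13.8, 17.5, 21.4, 37.7 and 16.2 CPM, and Ackr4, which takes up Ccl19 and Ccl25, at 1.31, 2.67, 2.42, 3.08 and 1.53 CPM. Both were highest in lactation and lower in involution, Ackr2 by a ratio of 0.428 (interval 0.399 to 0.459) and Ackr4 by 0.498 (0.392 to 0.631), the 2 members besides Cxcl13 that were called lower at that step. Ackr3 stayed between 294 and 430 CPM and passed 2-fold at no step. Although barcodes with Ptprc, Epcam or Pecam1 were removed, marker sums of other cells differed between the stages. From puberty to involution 5 epithelial markers summed to 0.246, 1.08, 36.1, 52.9 and 1.67 CPM, and 4 endothelial markers to 23, 27.2, 41.8, 5.25 and 16.3 CPM, while the macrophage markers were at 4.7 CPM in lactation and 5.91 CPM in involution. The makeup of the fibroblasts differed too. The cluster named preadipocyte, a state described below, held 13.48%, 24.78%, 20.14%, 38.05% and 46.08% of them from puberty to involution. Over all fibroblasts its 5 markers summed to 1146, 1131, 1368, 1458 and 1428 CPM. The 6 markers of extracellular matrix remodeling, also a state below, summed to 979, 959, 1611, 2783 and 7558 CPM. Crabp1, a marker of the latter, was among the leading genes of the preadipocyte cluster, so its share may include such cells. The part of the other cells and of this makeup in the differences between stages was not tested.

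**Figure D2:**
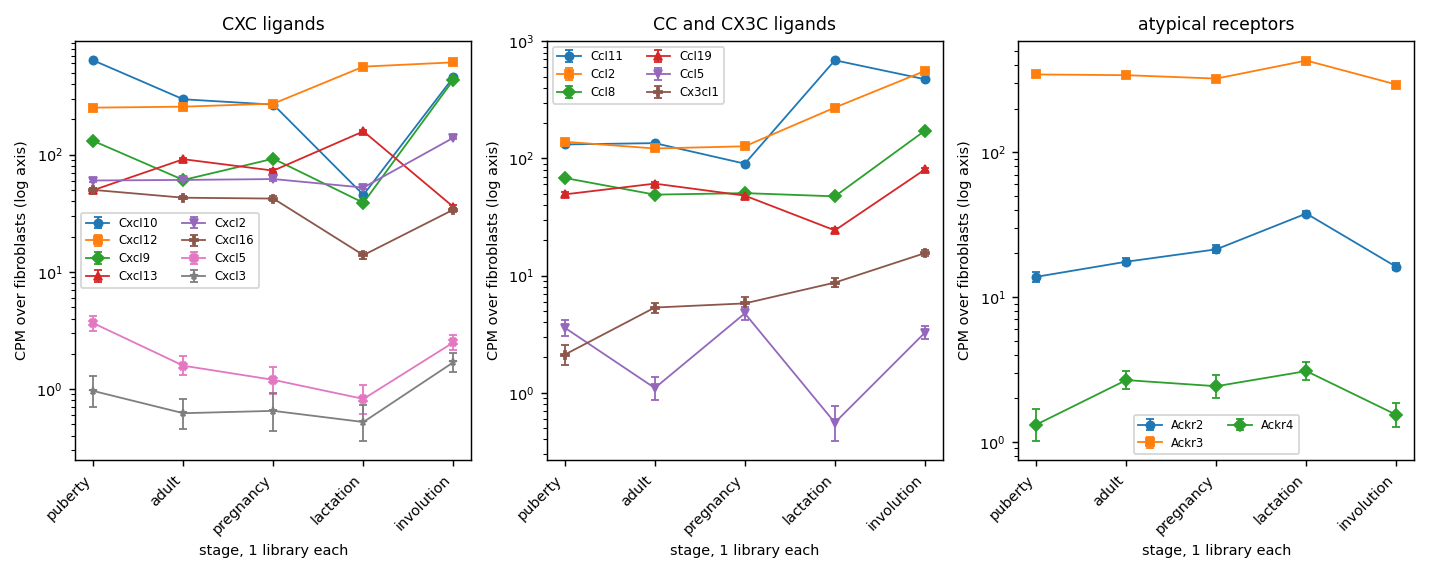
Levels of the members past 2-fold between neighboring stages (and Ackr3) in the 5 stage libraries, as CPM on a log axis with exact 95% Poisson intervals, which are often smaller than the symbols. Cxcl9, Cxcl10 and Cxcl16 dip in lactation, Ccl11 and Cxcl12 are high from lactation on, and Ackr2, Ackr4 and Cxcl13 peak in lactation.

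The second question was which fibroblast states held the transcripts. The 5 stage libraries, the 4 hormone libraries and the 4 raGFP-Wnt1 libraries were each clustered on their own with the members left out of the features, and clusters were named only from marker genes, as progenitor (Pi16, Dpp4), preadipocyte (Fabp4, Cd36), extracellular matrix (ECM) remodeling (Crabp1, Mgp), adipogenesis-regulatory (Gdf10, F3), lobular (Bmp5, Thbs4) and, in the raGFP-Wnt1 libraries, myofibroblastic (Acta2, Tagln) states. Levels by state are descriptions with no test, since the states come from the same cells. A gene was counted for a state if that state was highest in every library of the set in which the gene had at least 100 UMIs over the states. Cycling cells and clusters that stayed unnamed were left out of this ranking.

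Of the atypical receptors, Ackr3 and Ackr2 were found mainly in progenitors. Among the named states, Ackr3 was highest in progenitors in all 13 libraries, at 541 to 882 CPM in the stage libraries, 882 to 1131 CPM in the hormone libraries and 593 to 1188 CPM in the raGFP-Wnt1 libraries, 1.38 to 3.30 times the next state. Ackr2 followed it, with 28.1 to 77.8 CPM in progenitors of the stage libraries against at most 22.7 CPM in any other named state, though an unnamed cluster held 26.5 to 91.3 CPM. Ackr4 varied between the sets. It was highest in the lobular state of the 4 hormone libraries, at 7.07 to 16.3 CPM against 0.92 to 3.92 CPM in progenitors, and in progenitors of both hyperplasia libraries, at 17.7 and 13.9 CPM. Cxcl12, which Ackr3 takes up, was highest among the named states in the adipogenesis-regulatory state of every library, at 831 to 1128 CPM in the stage libraries against 93.3 to 226 CPM in progenitors. Ccl19 had the same pattern, at 116 to 186 CPM in the adipogenesis-regulatory state and 6.60 to 26.8 CPM in progenitors of the stage libraries.

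Cx3cl1 was found mainly in ECM remodeling and preadipocyte cells of the stage libraries, at 21.4 to 33.9 and 8.23 to 25.8 CPM, with at most 6.05 CPM in the progenitor, lobular and adipogenesis-regulatory states. These states depended on the clustering resolution: ECM remodeling cells of the stage libraries formed 1 cluster of 1487 cells at the resolution of 0.3 used here and clusters of 5345 and 1504 cells at 0.6, while preadipocytes went from 13999 cells to clusters of 7524 and 1007. At 0.6 Cx3cl1 was at 18.3 to 33.6 CPM in the former and 8.34 to 19.2 CPM in the latter. Cxcl9 was highest in preadipocytes of all 13 libraries, at 66.3 to 633 CPM in the stage libraries. Cxcl14 was lowest in progenitors among the named states in each of the 13 libraries, at 6.31 to 13 CPM in the stage libraries against 138 to 983 CPM in the adipogenesis-regulatory state. In the stage libraries 7 members, in the hormone libraries 14 and in the raGFP-Wnt1 libraries 11 kept 1 state as the highest in every library counted, which was a single library for Cxcl3 in the stage set and for Ccl20 in the raGFP-Wnt1 set. The adipogenesis-regulatory state held 2 of the 7 (Cxcl12 and Ccl19), 7 of the 14 (Cxcl1, Cxcl5, Cxcl12, Ccl7, Ccl8, Ccl11 and Ccl19) and 5 of the 11 (Cxcl12, Cxcl13, Cxcl16, Ccl8 and Ccl19). How many genes of any kind met this rule, or peaked in that state, was not counted. These counts therefore do not set the members apart from other genes. Cxcl1 itself was broadly expressed, at 741 to 3039 CPM in the progenitor, adipogenesis-regulatory, lobular and preadipocyte states of the stage libraries and at 85.7 to 245 CPM in the ECM remodeling state.

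**Figure D3:**
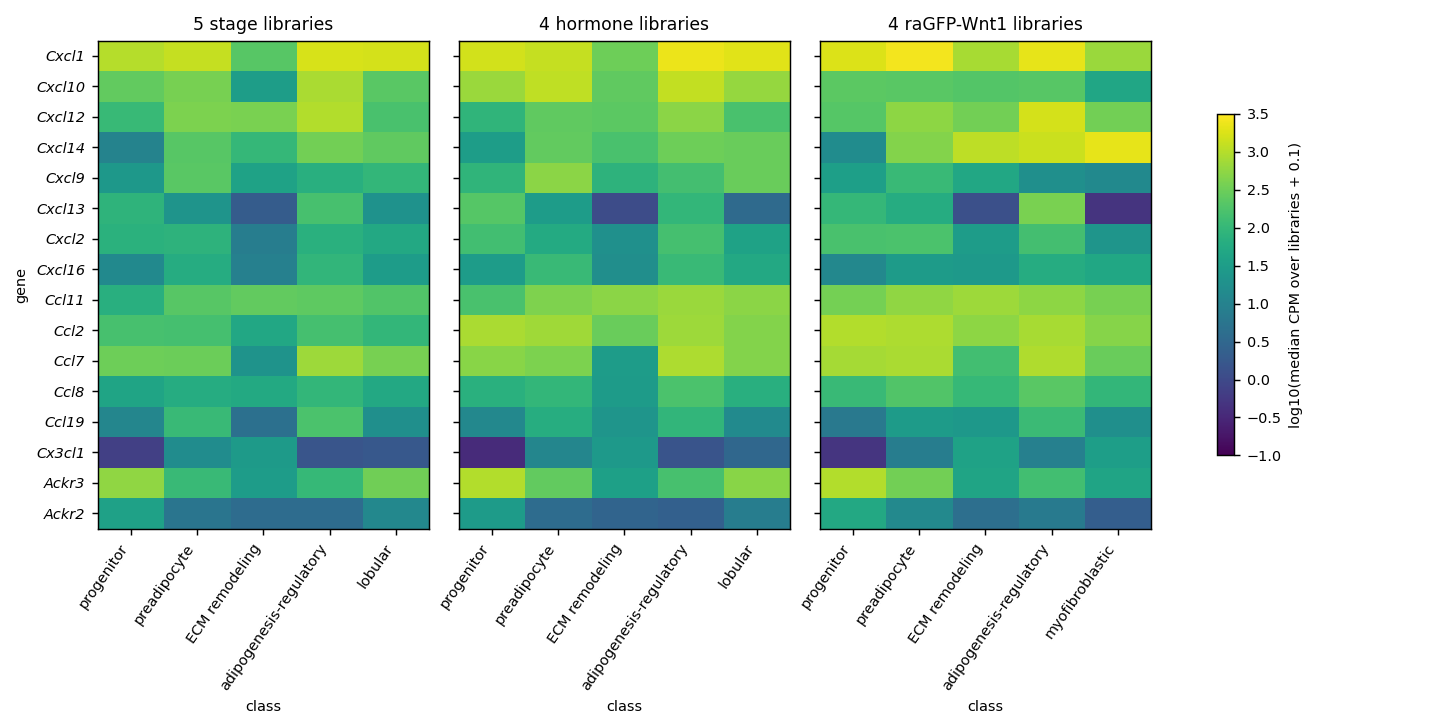
Median level of 16 members over the libraries of each set, by fibroblast state, as log10 of CPM plus 0.1. Ackr2 and Ackr3 are brightest in progenitors, Cxcl12 and Ccl19 in the adipogenesis-regulatory state, and Cx3cl1 in the ECM remodeling state.

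The third comparison asked what combined progestin and estrogen did. Of 23 members tested over all fibroblasts, 2 were called by edgeR's quasi-likelihood test at a Benjamini-Hochberg adjusted p under 0.05, against 4.34% of 15637 genes, 678 in all. The members' median log2 change was -0.47, and that of all genes 0.01. Cxcl16 was at 24.5 and 23.3 CPM in the placebo libraries and at 90.9 and 74.1 CPM in the MPA+E libraries, a rise of 1.80 ± 0.11 (log2, SE, n = 2 against 2; adjusted p = 0.00693). Ackr2 was at 18.4 and 18.3 CPM in placebo and at 11.4 CPM in both MPA+E libraries, and fell by 0.68 on the log2 scale (SE 0.10; adjusted p = 0.0348). The groups did not overlap for either gene. The summed level of 4 endothelial markers moved with the treatment as well, from 14.6 CPM in both placebo libraries to 44 and 45.9 CPM under MPA+E, although Pecam1-positive barcodes had been removed, and its part in these changes was not tested. Without placebo replicate 1 or without placebo replicate 2 neither gene was called by edgeR (adjusted p = 0.0522 and 0.0523 for Cxcl16, 0.169 and 0.253 for Ackr2), and the count of members called was 0, with 13 and 7 members at an unadjusted p under 0.05. Over all genes 20 and 11 were called in these fits. Without MPA+E replicate 1 or MPA+E replicate 2 more members, and more genes in all, were called than in the full fit. DESeq2 called 7 members, and 1358 of the 15637 genes.

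Several members varied widely between the libraries of a group. Cxcl1 was at 1428 and 2401 CPM in placebo and at 543 and 1146 CPM under MPA+E, Ccl2 at 751 and 1053 against 242 and 576 CPM, and Cxcl2 at 78.4 and 311 against 24.7 and 103 CPM. In each gene the library numbered 2 was the higher one of both groups, and the Cxcl2 groups overlapped. Their log2 changes of -1.17 ± 0.48 (SE), -1.12 ± 0.48 and -1.61 ± 0.94 did not pass (adjusted p = 0.289, 0.306 and 0.458). Cxcl14 was at 106 and 94.2 CPM in placebo and at 322 and 171 CPM under MPA+E, with no overlap, but its change of 1.30 ± 0.27 missed the threshold over all fibroblasts (edgeR adjusted p = 0.0800). DESeq2 called it there.

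Within the states, each fitted on its own sums, the background differed: 11.9% of genes were called in progenitors, 4.45% in preadipocytes, 1.07% in ECM remodeling cells, 3.6% in adipogenesis-regulatory cells and 2.51% in lobular cells. Of the members tested, 6 of 22, 5 of 20, 1 of 18, 4 of 19 and 4 of 19 were called in that order. Cxcl16 rose in 4 of the 5 states, by 1.95 ± 0.09 (log2, SE) in progenitors, 2.17 ± 0.11 in preadipocytes, 1.56 ± 0.13 in adipogenesis-regulatory and 1.98 ± 0.20 in lobular cells (edgeR adjusted p = 0.000985, 0.00285, 0.00234 and 0.00305). In preadipocytes it was at 42.1 and 38.8 CPM in placebo and at 179 and 187 CPM under MPA+E. In ECM remodeling cells its values were 12.4 and 13.1 against 26.8 and 20.6 CPM, which did not overlap but did not pass. The 4 calls of Cxcl16 were kept in each of 7 alternatives, among them each fit that left out 1 library. The counts of members called changed with the library left out, and so did the counts over all genes. In each such fit 1 group held 1 library.

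Cxcl14 rose by 2.91 ± 0.27 in progenitors, 1.83 ± 0.29 in preadipocytes and 1.13 ± 0.14 in ECM remodeling cells (edgeR adjusted p = 0.00329, 0.0334 and 0.0306). Its progenitor levels were 7.51 and 10.7 CPM in placebo and 82.2 and 52.2 CPM under MPA+E, still below the 166 and 129 CPM that preadipocytes had under placebo. Without placebo replicate 1 or placebo replicate 2 the calls in preadipocytes (adjusted p = 0.144 and 0.177) and ECM remodeling cells (0.122 and 0.124) were lost, while that in progenitors was kept in each of 7 alternatives. In the lobular state the values were 277 and 329 against 305 and 221 CPM and overlapped. Epcam-positive barcodes below the limit for Dcn, Lum and Col1a2, which were left out, held Cxcl14 at 746 to 2149 CPM in these 4 libraries. The part of free RNA in the low progenitor values was not tested.

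Ccl11 fell by 1.17 (log2, SE 0.12) in progenitors and by 0.87 (SE 0.13) in preadipocytes (edgeR adjusted p = 0.00400 and 0.0256). Progenitors held 238 and 217 CPM in placebo against 93.0 and 102 CPM under MPA+E. Ccl19 went both ways, from 7.98 and 10.1 CPM up to 15.1 and 14.8 CPM in progenitors (0.77 ± 0.16, adjusted p = 0.0356) and from 80.2 and 89.1 CPM down to 49.0 and 44.9 CPM in preadipocytes, where it fell by 0.86 (SE 0.13; adjusted p = 0.0285). Cxcl5 fell in progenitors, from 2.65 and 1.65 CPM to 0.215 and 0.30 CPM, and in preadipocytes, from 3.27 and 6.89 CPM to 0.218 and 0.128 CPM (adjusted p = 0.00888 and 0.0211). The library lowest in Cxcl5 held 7 of its UMIs in progenitors and 2 in preadipocytes. The progenitor call of Ccl11 was kept in each of 7 alternatives. The others were lost in 1 or more alternatives: that of Ccl11 in preadipocytes was lost without any 1 of the 4 libraries (edgeR adjusted p from 0.0561 to 0.150), those of Ccl19 without placebo replicate 1 (0.153) or at a clustering resolution of 0.6 (0.0559) in progenitors and without placebo replicate 1, placebo replicate 2 or MPA+E replicate 2 in preadipocytes (0.0678, 0.148 and 0.0699), and those of Cxcl5 without placebo replicate 1 in progenitors (0.0519) and without placebo replicate 2 in preadipocytes (0.0686).

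In the adipogenesis-regulatory state Cxcl12 fell from 934 and 758 CPM to 303 and 294 CPM, by 1.43 on the log2 scale (SE 0.14; edgeR adjusted p = 0.00375). The interferon-induced ligands rose there, Cxcl10 from 723 and 668 to 1675 and 2334 CPM (1.61 ± 0.22, adjusted p = 0.0116) and Cxcl9 from 109 and 106 to 179 and 255 CPM (1.10 ± 0.21, adjusted p = 0.0431). Cxcl10 also rose in the lobular state, from 294 and 331 to 907 and 1467 CPM (1.99 ± 0.28, adjusted p = 0.0124). In preadipocytes Cxcl10 was at 1357 and 912 against 972 and 1721 CPM, which overlapped. Ackr2 fell by 0.56 (log2, SE 0.10) in progenitors, its main site, and by 1.88 (SE 0.35) in the lobular state (adjusted p = 0.0208 and 0.0338). In the lobular state the library lowest in Ackr2 held 4 of its UMIs. Cxcl3 was called lower in the lobular state on 3 UMIs against 33, a ratio of 0.0616 with a counting interval of 0.0121 to 0.196. The call of Cxcl12 was kept in each of 7 alternatives. In the adipogenesis-regulatory state those of Cxcl10 (edgeR adjusted p = 0.0798 and 0.0800) and Cxcl9 (0.215 and 0.181) were lost without placebo replicate 1 and without placebo replicate 2. In the lobular state those of Cxcl10 (0.0601) and Ackr2 (0.247) were lost without placebo replicate 2, and that of Cxcl3 without placebo replicate 1, placebo replicate 2 or MPA+E replicate 1. The progenitor call of Ackr2 was lost without placebo replicate 1 (0.140) or placebo replicate 2 (0.120).

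Whether progenitors responded differently was tested as an interaction, the change in progenitors minus the mean change in the other 4 named states, with library as a block. Of 21 members 4 were called, against 11% of 13933 genes. Cxcl14 rose by 2.04 ± 0.19 (log2, SE) more in progenitors than elsewhere (edgeR adjusted p = 6.60e-06) and Ccl19 by 1.06 ± 0.11 (adjusted p = 1.97e-05). Ccl11 changed by -0.91 ± 0.10 relative to the other states (adjusted p = 1.65e-05). Cxcl1 differed by 0.32 ± 0.08 (adjusted p = 0.0137), a call lost without placebo replicate 1, placebo replicate 2 or MPA+E replicate 1 (adjusted p = 0.0512, 0.193 and 0.0686), while the other 3 genes kept theirs in each of 6 alternatives.

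The progenitor state joined clusters 1 and 2, and cluster 1 held 72.2% and 70.4% of it in placebo but 40.8% and 43.3% under MPA+E. Within cluster 1 Cxcl14 was at 1.48 and 4.78 CPM in placebo against 18.1 and 6.96 CPM, and within cluster 2 at 21.7 and 23.1 against 121 and 80.8 CPM, so the groups were apart in both. Ccl11 was likewise apart in both, at 243 and 205 against 78.9 and 58.3 CPM in cluster 1 and at 224 and 242 against 101 and 130 CPM in cluster 2. Cxcl16 was also higher under MPA+E in both clusters. Ccl19 was apart in cluster 2, at 10.9 and 12.5 against 17.3 and 21.3 CPM, but overlapped in cluster 1, at 6.73 and 8.87 against 11.3 and 4.58 CPM.

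**Figure D4:**
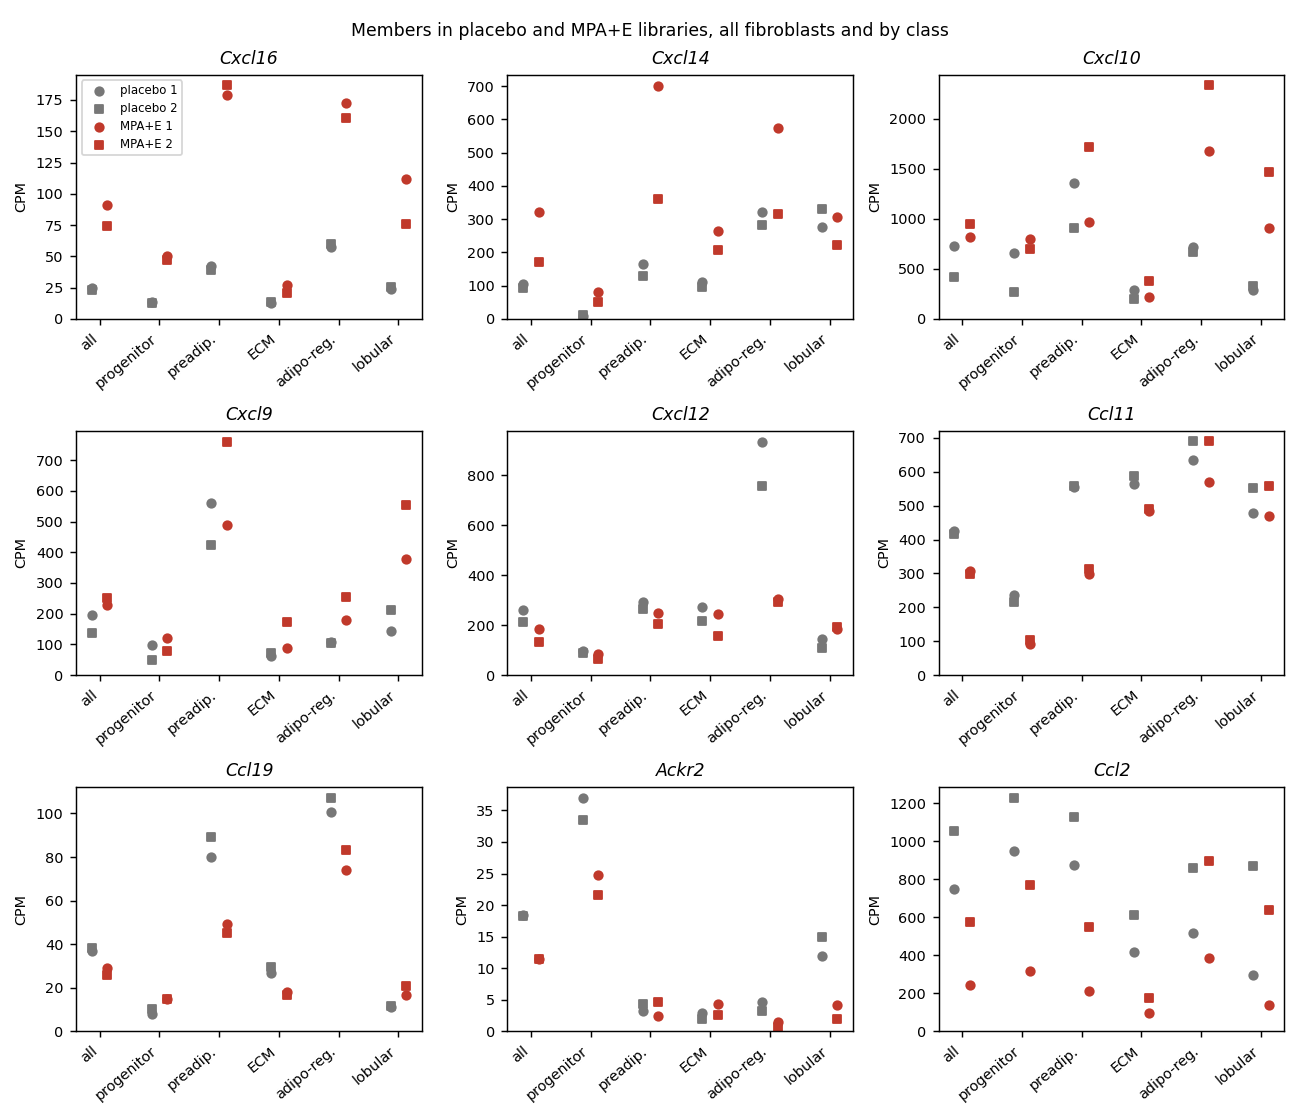
CPM of 9 members in the 2 placebo (gray) and 2 MPA+E (red) libraries, over all fibroblasts and in 5 states, with circles for replicate 1 and squares for replicate 2. Cxcl16 points are separated in each column, Cxcl14 is separated in progenitors and preadipocytes but not in the lobular state, and Ccl2 shows the difference between replicate numbers.

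The fourth comparison set the tumor stroma of the raGFP-Wnt1 mice against their hyperplastic glands. limma-voom was fitted to 6 libraries, with puberty and adult as normal glands, and 12 of 26 members were called in tumor against hyperplasia at an adjusted p under 0.05, against 29.3% of 16295 genes. Of the members 9 rose, where 15.4% of genes did, and 3 fell, where 13.9% did. The members' median log2 change was 0.77, and that of all genes -0.01.

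Of the neutrophil attractants on chromosome 5, Cxcl5, Cxcl3 and Cxcl2 rose. Cxcl5 was at 2.78 and 1.45 CPM in hyperplasia and at 55.2 and 136 CPM in tumor, a rise of 5.47 ± 0.63 (log2, SE, n = 2 against 2; limma-voom adjusted p = 0.00573). Cxcl3 rose from 0.726 and 0.414 to 7.61 and 11.8 CPM, by 4.12 ± 0.45 (adjusted p = 0.00500). Cxcl2 rose from 31.3 and 49.3 to 227 and 591 CPM, by 3.23 ± 0.42 (adjusted p = 0.00710). For each of them both tumor libraries lay above the hyperplasia, puberty and adult libraries, though for Cxcl2 placebo replicate 2, at 311 CPM, lay above tumor replicate 1. Cxcl1, which bears the same motif as Cxcl2 and Cxcl3 in the stretches above, was already abundant, at 1525 and 1124 CPM in hyperplasia and at 1745 and 1813 CPM in tumor, and its change of 0.44 ± 0.20 did not pass (adjusted p = 0.132). Without hyperplasia replicate 1 the calls of Cxcl5, Cxcl3 and Cxcl2 were lost (adjusted p = 0.0578, 0.0522 and 0.0651), and without hyperplasia replicate 2 those of Cxcl5 and Cxcl3 (0.0544 and 0.0537).

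Ccl2 and Ccl7, the monocyte attractants on chromosome 11, also rose. Ccl2 was at 406 and 238 CPM in hyperplasia and at 1368 and 1459 CPM in tumor, a rise of 2.18 ± 0.28 (log2, SE; limma-voom adjusted p = 0.00710). Its neighbor Ccl7 rose from 212 and 158 to 956 and 637 CPM, by 2.09 ± 0.28 (adjusted p = 0.00750). Neither gene's groups overlapped. Ccl8, a further member of that cluster, was at 80.9 and 74.1 CPM against 167 and 115 CPM and did not pass (adjusted p = 0.0556), but it was called with the mouse as a block, in a fit of the 4 hyperplasia and tumor libraries alone (0.0299). Ccl9, a ligand of CCR1, rose from 0.460 and 0.221 to 2.02 and 4.14 CPM, and Ccl17, a ligand of CCR4, from 0.655 and 0.677 to 10.9 and 4.08 CPM (adjusted p = 0.0179 and 0.0224). Ccl6 was called on 72 UMIs in tumor against 3 in hyperplasia, a ratio of 16.3 with a counting interval of 5.35 to 80.7. Without either hyperplasia library the calls of Ccl9, Ccl17 and Ccl6 were lost, and so was that of Ccl7. That of Ccl6 was also lost with the barcodes of other cells kept (limma-voom adjusted p = 0.0619). The 6 macrophage markers summed to 4.66 and 3.55 CPM in hyperplasia and to 7.5 and 10.3 CPM in tumor, and their part in the values of Ccl6 and Ccl9 was not tested.

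Cxcl14 rose from 289 and 474 CPM in hyperplasia to 1499 and 2031 CPM in tumor, by 2.24 ± 0.28 (log2, SE; limma-voom adjusted p = 0.00673). It was the most abundant member in the tumor of mouse 2, above Cxcl1. Its call and that of Ccl2 were kept in each of 15 alternatives.

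Of the 3 members that fell, Cxcl13, the B-cell attractant, was at 113 and 128 CPM in hyperplasia and at 20.1 and 0.490 CPM in tumor, so that it was low in both tumors and nearly absent from that of mouse 2. It fell by 5.16 on the log2 scale (SE 1.37; limma-voom adjusted p = 0.0352). Ackr4 went from 5.49 and 5.51 CPM to 1.92 and 0.125 CPM, where it fell by 3.38 (SE 0.96; adjusted p = 0.0415). Ccl11 went from 601 and 557 CPM to 419 and 308 CPM, where it fell by 0.69 (SE 0.20; adjusted p = 0.0456). The other atypical receptors had the same order of groups, Ackr3 with 434 and 488 against 270 and 91.8 CPM and Ackr2 with 18.8 and 27.2 against 14.4 and 0.433 CPM, but did not pass (limma-voom adjusted p = 0.0515 and 0.102). Ackr3 was called with DESeq2, with its size factors, without the low-count filter and at a mitochondrial limit of 5%. It was not called with edgeR's quasi-likelihood test or with the mouse as a block. With the mouse as a block Cxcl13 and Ackr4 were no longer called (adjusted p = 0.0701 and 0.0888), nor was Ccl6 (0.0544), while Cx3cl1 (0.0280), Ccl20 (0.0274), Ccl5 (0.0339) and Cxcl10, which fell by 0.87 (SE 0.17; 0.0325), were called besides Ccl8, 14 members in all. The calls of Cxcl13, Ackr4 and Ccl11 were also lost without any 1 of the 4 normal and hyperplasia libraries, and with edgeR's quasi-likelihood test in place of limma-voom (0.0926, 0.115 and 0.0541). Those of Cxcl13 and Ackr4 were lost with DESeq2 (0.0682 and 0.142), and that of Ccl11 without the low-count filter (0.0535) or without tumor replicate 2 (0.116). The count of members called was 2 without hyperplasia replicate 1 and 3 without hyperplasia replicate 2, with 235 and 314 genes called in all. Without puberty replicate 1 or adult replicate 1 fewer members, and fewer genes in all, were called than in the full fit. Without tumor replicate 1 more of both were called, and without tumor replicate 2 more members but fewer genes.

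Cxcl10 was at 339 and 86.8 CPM in hyperplasia and at 156 and 55 CPM in tumor, so that the groups overlapped while the tumor was lower than the hyperplasia of each mouse. Cxcl9, at 60.9 and 13.9 against 64.3 and 34.3 CPM, also overlapped and was higher in the tumor of each mouse (limma-voom adjusted p = 0.487, and 0.180 with the mouse as a block). Cxcl12, at 425 and 333 against 431 and 295 CPM, overlapped and differed in direction between the mice. Ccl20, a ligand of CCR6, had 0 UMIs in both hyperplasia libraries and 17 and 187 UMIs in the tumors, which were apart (limma-voom adjusted p = 0.0589, and 0.0274 with the mouse as a block).

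The makeup of the fibroblasts differed between the tissues, and its part in the sums was not tested. The ECM remodeling state made up 47.3% and 42.8% of fibroblasts in hyperplasia and 12% and 10.2% in tumor, while the myofibroblastic state made up 4.17% and 3.82% against 25.6% and 35.0%. An unnamed cluster held 1.56% and 2.17% against 17.4% and 39.2%, and progenitors 20.1% and 24.4% against 22.9% and 2.60%, the last being 110 cells. Marker sums of other cells differed too, with 4 pericyte markers at 14 and 13.6 CPM in hyperplasia and 30 and 34.4 CPM in tumor, 3 mesothelial markers at 0.442 and 0.966 against 5.46 and 14.7 CPM, and 4 endothelial markers at 5.49 and 12.7 against 2.93 and 3.63 CPM. Their part was not tested either. Within states Cxcl14 was at 513 and 1009 CPM in hyperplasia and 3850 and 3228 CPM in tumor in myofibroblastic cells, and at 371 and 753 against 1489 and 4051 CPM in ECM remodeling cells, so the groups were apart in both. In preadipocytes it was at 350 and 575 against 289 and 760 CPM, which overlapped. Preadipocytes of these libraries depended on the clustering, with 4141 cells at the resolution of 0.3 and 2708 at 0.6. At 0.6 an unnamed cluster of 2483 cells had Cxcl5 among its leading genes. The study reported that Cd36+ committed preadipocytes were absent from tumors. It also reported Acta2+ myofibroblastic clusters in tumors that hyperplastic glands lacked. Here the myofibroblastic cluster was named on 5 raised markers, none among its 10 leading genes, and held 252 and 305 cells in hyperplasia. The 6 markers summed to 1838 and 822 CPM in hyperplasia, 3641 and 7654 CPM in tumor and 2350 and 2092 CPM in placebo. The name is therefore uncertain for the hyperplasia cells.

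Ccl2 was higher in tumor within progenitors, at 347 and 185 CPM in hyperplasia and 1608 and 4039 CPM in tumor, within myofibroblastic cells, at 155 and 150 against 911 and 807 CPM, and by less within ECM remodeling cells, at 374 and 223 against 811 and 714 CPM. Progenitors also held Ccl7 at 292 and 148 against 1285 and 2101 CPM, and Cxcl2 at 51.3 and 112 against 206 and 1540 CPM. Cxcl5 in preadipocytes was at 3.17 and 0.567 against 37.2 and 182 CPM. Each of these pairs of groups was apart. Such levels do not give the part of the transcripts that a state held. In the tumor of mouse 2 progenitors made up 2.60% and preadipocytes 5.15% of fibroblasts. The unnamed cluster, whose levels are not given here, made up 39.2%. Cxcl13 in the adipogenesis-regulatory state was at 658 and 602 against 176 and 28.1 CPM, and in progenitors at 191 and 197 against 11.4 and 0.478 CPM. In the tumor of mouse 2 the adipogenesis-regulatory state held only 41 cells and progenitors 110, so levels there rest on few cells. Within progenitors Ackr3 was at 1188 and 1157 against 724 and 593 CPM and Ackr4 at 17.7 and 13.9 against 6.71 and 0 CPM, lower in both tumors. Ackr2 was at 52.4 and 61.2 against 49.8 and 4.78 CPM there, so that the tumor of mouse 1 was close to the hyperplasia libraries and the low value was that of the 110 cells of mouse 2. Ccl17 in myofibroblastic cells was at 0.526 and 2.86 against 32.7 and 9.33 CPM. Cxcl12 in the adipogenesis-regulatory state, at 1588 and 1594 against 1791 and 1267 CPM, overlapped as it did in the sum.

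**Figure D5:**
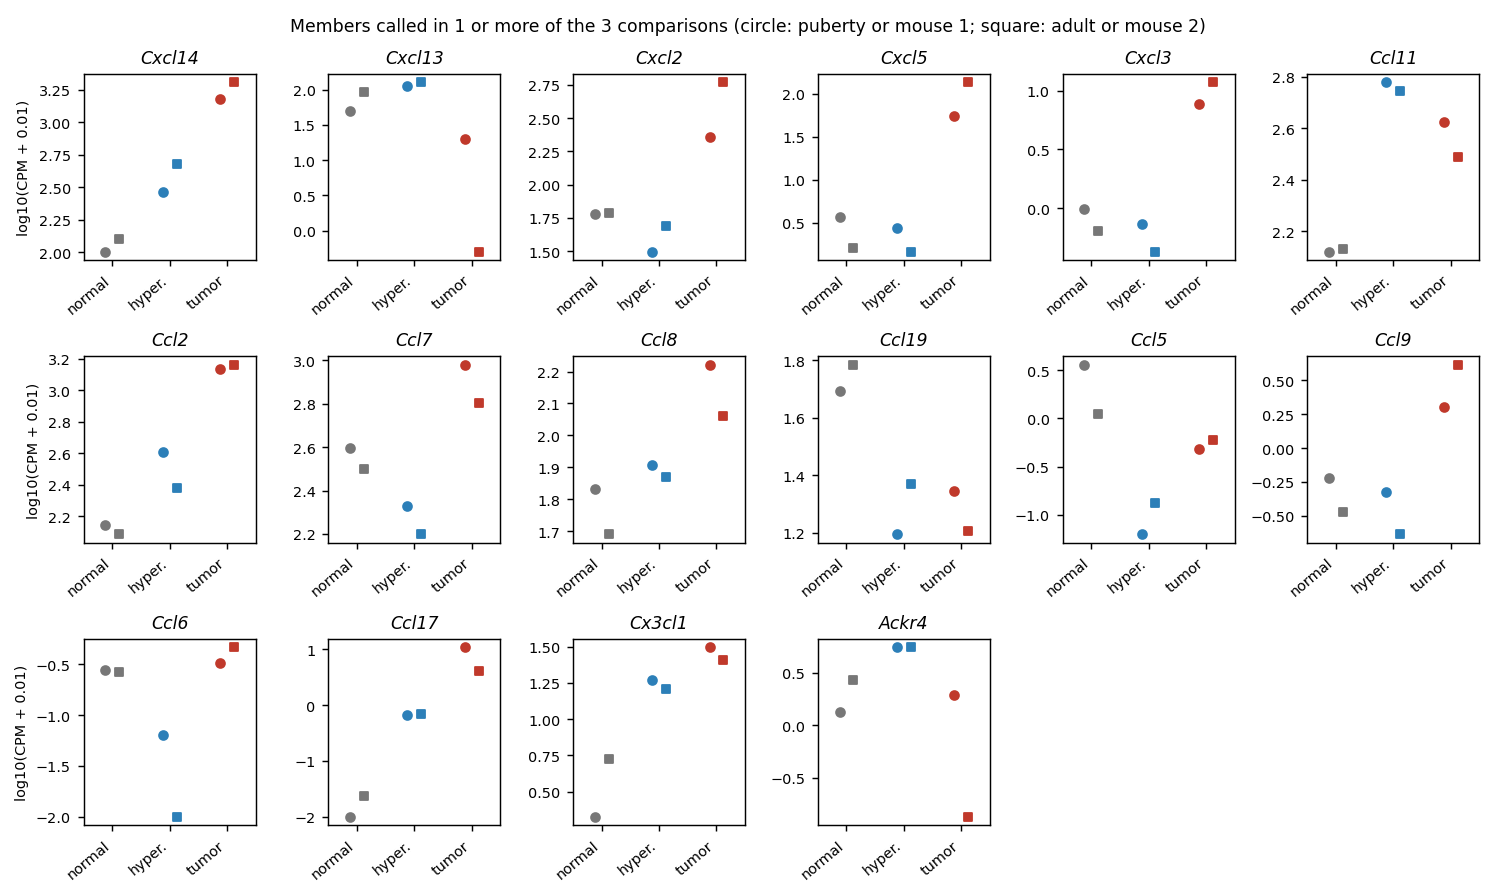
Levels of the 16 members called in at least 1 of the comparisons among normal gland (gray), hyperplasia (blue) and tumor (red), as log10 of CPM plus 0.01 in each library, each panel with its own axis. Cxcl2, Cxcl3, Cxcl5, Ccl2, Ccl7 and Cxcl14 lie highest in tumor, while Cxcl13 and Ackr4 lie lowest in the tumor of mouse 2.

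Hyperplasia and tumor were also set against the normal glands, from which they differed in strain, age and sort, so that none of these can be told apart from the group. In hyperplasia 7 of 26 members were called by limma-voom, 4 higher and 3 lower, against 14% of genes (7.7% higher and 6.31% lower). Ccl11 was at 132 and 135 CPM in normal gland and at 601 and 557 CPM in hyperplasia, a rise of 2.08 ± 0.20 (log2, SE; adjusted p = 0.00725). Cxcl14 rose from 101 and 126 to 289 and 474 CPM, by 1.68 ± 0.26 (adjusted p = 0.0197), and Cx3cl1 from 2.11 and 5.34 to 18.6 and 16.1 CPM, by 2.24 ± 0.37 (adjusted p = 0.0222). Ccl2 rose by 1.22 ± 0.26 (adjusted p = 0.0362), from 139 and 122 CPM. Ccl19 fell by 1.54 (SE 0.26; adjusted p = 0.0221), from 49.3 and 60.9 to 15.7 and 23.5 CPM, Ccl5 went from 3.59 and 1.10 to 0.0531 and 0.124 CPM (adjusted p = 0.0401), and Ccl6 had 3 UMIs in hyperplasia against 32 in normal gland, a ratio of 0.0891 with a counting interval of 0.0175 to 0.285. The call of Ccl6 was lost without any 1 of the puberty, adult and hyperplasia libraries, with DESeq2's size factors (adjusted p = 0.0506), by edgeR's quasi-likelihood test (0.0529), at a mitochondrial limit of 5% (0.0529), with doublets removed (0.0576) and with the barcodes of other cells kept (0.0742), as was that of Ccl5 in the last setting (0.0621). The lymphocyte and dendritic markers summed to 0.349 and 0.731 CPM in normal gland and to 3.75 and 5.83 CPM in hyperplasia, the endothelial markers to 23 and 27.2 against 5.49 and 12.7 CPM, and the macrophage markers to 6.24 and 4.08 against 4.66 and 3.55 CPM. Among the fibroblasts, 6 markers of the ECM remodeling state summed to 979 and 959 CPM in normal gland and to 3119 and 2778 CPM in hyperplasia. The sum does not give the share of that state. In tumor it was 7170 and 9003 CPM, while the state held 12% and 10.2% of fibroblasts, a smaller share than in hyperplasia. The part of these cells and of that state in the calls was not tested. Without puberty replicate 1, hyperplasia replicate 1 or hyperplasia replicate 2 nearly all calls over the genes were lost, those of every member among them. In each of these fits 1 group held 1 library. Without adult replicate 1 the calls of Ccl11, Ccl5 and Cx3cl1 were kept, while most calls over the genes were lost. Without tumor replicate 1 or tumor replicate 2 more members were called than in the full fit, as were more genes in all.

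Since the puberty and adult libraries stood apart, the 2 placebo libraries were put in their place, a choice made after seeing the data. Then 2 members were called in hyperplasia, where 281 of 16168 genes were, against 2283 of 16295 before, Cxcl14 by 1.86 ± 0.25 (log2, SE; limma-voom adjusted p = 0.0288) and Cx3cl1 by 1.13 ± 0.18 (adjusted p = 0.0441). Ccl2 turned over, to -1.54 ± 0.31 (adjusted p = 0.0752), since the placebo libraries held 751 and 1053 CPM, and Ccl11 was at 0.43 ± 0.19 (adjusted p = 0.320). So the levels of Cxcl14 and Cx3cl1 were above both sets of normal libraries, while the direction of Ccl2 depended on which normal libraries were used.

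In tumor against normal gland 12 of 26 members were called, 11 higher and 1 lower, against 22.8% of genes (12.7% higher and 10.1% lower). Cxcl14 rose by 3.92 ± 0.27 (log2, SE; limma-voom adjusted p = 0.00102), Cxcl5 by 5.22 ± 0.61 (0.00396), Cxcl3 by 3.61 ± 0.42 (0.00388), Ccl2 by 3.41 ± 0.28 (0.00147), Cx3cl1 by 2.95 ± 0.37 (0.00454), Cxcl2 by 2.57 ± 0.42 (0.0102) and Ccl11 by 1.40 ± 0.20 (0.00633). Ccl7, Ccl8 and Ccl9 rose by 1.11 ± 0.28, 1.22 ± 0.26 and 2.70 ± 0.59 (adjusted p = 0.0360, 0.0224 and 0.0231). Ccl17 had 1476 UMIs in tumor against 1 in normal gland, a ratio of 951 with a counting interval of 170 to 37575. Ccl19 fell by 1.57 (SE 0.25; adjusted p = 0.00958). Without adult replicate 1 the calls of Ccl19, Ccl7, Ccl8, Ccl9, Ccl17 and Cxcl2 were lost, and fewer genes in all were called. Ccl17, Ccl7, Ccl9 and Cxcl2 were also lost without puberty replicate 1, and Ccl7 and Ccl8 without either hyperplasia library. Against the placebo libraries 8 of 25 members were called, where 3715 of 16168 genes were. Cxcl14 (4.11 ± 0.26, adjusted p = 0.000786), Cxcl5 (4.14 ± 0.53), Cx3cl1, Ccl8, Ccl9, Ccl17 and Ccl19 kept their calls and Ackr3 was added. Ccl11 turned over to -0.25 ± 0.19 (adjusted p = 0.354), and Ccl2, at 0.64 ± 0.33 (adjusted p = 0.188), Cxcl2, Cxcl3 and Ccl7 did not pass.

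The remaining genes of the pathway were counted from fixed lists, against a background of 4.34% of genes called under MPA+E, of 15.4% higher and 13.9% lower in tumor against hyperplasia, and of 7.7% higher in hyperplasia against normal gland. Of 20 classical receptors and related binders, 6 had enough UMIs to be tested in the hormone libraries and 7 in the raGFP-Wnt1 fit. In the hormone fit 1 fell by edgeR's test, Ackr1, which binds chemokines without signaling and was at 1.53 to 52.5 CPM over the 13 libraries. In tumor against hyperplasia 1 receptor rose and 1 fell. Of 8 other chemokines 3 and 5 were tested, and Ccl27a stayed at 5.22 to 10.5 CPM. Under MPA+E their adjusted p was 0.138 or more by edgeR over all fibroblasts, while Ccl12 was called higher in preadipocytes (adjusted p = 0.0419), and 1 rose and 1 fell in tumor against hyperplasia. The 14 NF-κB and interferon regulators tested had a median log2 change of -0.23 under MPA+E, against 0.01 for all genes. Among them Irf7, a transcription factor gene of the interferon response named after its values were seen, was at 76.1 and 57.1 CPM in placebo and at 436 and 441 CPM under MPA+E, with no overlap, a rise of 2.74 ± 0.15 (log2, SE; edgeR adjusted p = 0.00659). In tumor against hyperplasia 1 of these 14 rose and 1 fell. Of 13 immediate early and stress genes, which dissociation of tissue can induce, 1 rose and 7 fell in tumor against hyperplasia by limma-voom, and 5 rose in hyperplasia against normal gland. Their summed level was 47862 and 39448 CPM in hyperplasia, 25837 and 17283 CPM in tumor and 18545 and 23216 CPM in puberty and adult. The part of that difference in the chemokine results was not tested. The summed lymphocyte and dendritic markers were highest in the tumor of mouse 1, at 13.1 CPM.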

How the data were processed

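The authors deposited raw UMI counts per gene and barcode for 13 libraries, made with Cell Ranger 6.1.2 on mm10 per the submitters' processing notes, and these deposited counts were used without rescaling. Barcodes were kept as given above, and 32285 gene rows were summed to 32245 symbols. Doublets, scored with Scrublet in scanpy 1.11.5, were marked at 0.8% per 1000 barcodes and kept, their removal being an alternative. Barcode sequences shared between libraries were at most 0.504% of a library.

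The cells of each set were clustered with Seurat 5.3.0 (resolution 0.3), without the members as features. A cluster was named when at least 3 markers of a state were at least 2-fold higher and 1 of them was among its 10 leading genes, or when at least 5 were higher, unless over 50% of its cells were marked doublets, at least 3 leading genes were milk genes, or its UMI count was far below that of its libraries with no leading marker. These limits were set once the cluster tables had been seen but before groups were compared. UMIs were summed per library, or per library and state. Hormone sums were tested with edgeR 4.0.16 (quasi-likelihood, TMM, low counts filtered) and normal, hyperplasia and tumor sums with limma 3.58.1 (voom) in R 4.3.3, with Benjamini-Hochberg adjustment over all genes and a threshold of 0.05. DESeq2 1.42.0 served as an alternative. The fits were also run on simulated counts with known changes. These were drawn with the same spread for every gene of a fit. They cannot show how the fits do for genes that vary more between libraries of a group. Intervals cover counting error only. Figures were drawn with matplotlib 3.10.9.

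Named with values were the members called in a test, those past 2-fold between neighboring stages with 100 UMIs or more, and the 12 with the highest median level. Ccl25, named after its values were seen, and Ccl20, called only in alternatives, were given besides. The members and gene lists were chosen with earlier results of these data known. Tumor and hyperplasia of 1 number came from the same mouse per the labels, so the mouse was used as a block in an alternative, fitted to the 4 hyperplasia and tumor libraries without the normal ones. The deviations of these pairs from their group means correlated at 0.0951 over 15995 genes. The placebo libraries in place of puberty and adult were added after seeing the data. A result for 1 gene of the context lists is not reported here.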

Additional observations from a re-analysis of the deposited data

Results flagged for a closer look

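The response of 4 members to MPA+E differed between progenitors and the mean of the other 4 named states by the interaction test (edgeR's quasi-likelihood test over all genes, library as a block), and a difference between states was the reason to single them out. The difference in log2 change, progenitors minus the other states, was 2.0424 for Cxcl14, 1.0616 for Ccl19, -0.9148 for Ccl11 and 0.321 for Cxcl1. Cxcl14, the stromal chemokine, and Ccl19, the CCR7 ligand, moved upward in progenitors relative to the other states, and the eosinophil attractant Ccl11 moved downward.

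A further signal lay in barcodes left out of the report that were below the limit for Dcn, Lum and Col1a2 and held a UMI of Ptprc, the pan-leukocyte gene. Their number was 11 in lactation and 14 in involution, and members were singled out where their level there was at least 10-fold above the fibroblasts of the same library. In lactation Cxcl2 was at 8692 CPM, Ccl4 at 3913 CPM, Ccl5 at 1924 CPM, Ccl3 at 1010 CPM, Cxcl16 at 304.7 CPM, Cxcl3 and Ccl6 at 288.7 CPM each and Ccl9 at 256.6 CPM. In involution Cxcl2 was at 4159 CPM, Ccl4 at 2676 CPM, Ccl5 at 1306 CPM, Ccl9 at 870.6 CPM, Ccl6 at 806.1 CPM and Ccl3 at 241.8 CPM. Ccl3, Ccl4 and Ccl6, which were at or near 0 in fibroblasts, were thus found among the few leukocyte-marked barcodes of both libraries, each of which is 1 library with no replicate.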

How the results depend on the processing

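Member calls were refitted under the alternatives. Among 343 refits that left no library out, 316 kept the call, 25 lost it and 2 reversed. Among 290 refits without 1 library, 193 kept the call and 97 lost it. Both reversals came from the placebo libraries in place of puberty and adult, with Ccl2 at -1.54 in hyperplasia and Ccl11 at -0.25 in tumor on the log2 scale. That setting left 2 members in hyperplasia against normal gland, where 7 were called.

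Under MPA+E DESeq2 gave 7 members over all fibroblasts in place of 2. The hormone groups share replicate numbers in the labels, but no label says that a number marks a shared experiment, and deviations of libraries of 1 number correlated at 0.396 over 2 pairs. With the replicate number as a block 13 members were called over all fibroblasts, 13 in progenitors, 12 in preadipocytes, 10 in ECM remodeling cells, 11 in the adipogenesis-regulatory and 14 in the lobular state, 60 over the states in place of 20. The 13 over all fibroblasts were Cxcl1, Cxcl2, Cxcl5, Cxcl9, Cxcl12, Cxcl14, Cxcl16, Ccl2, Ccl7, Ccl11, Ccl19, Ackr2 and Ackr4. Calls over all genes rose too with this block, to 2450 of 15637 over all fibroblasts, 3027 of 13705 in progenitors, 1941 of 12765 in preadipocytes, 1336 of 12751 in ECM remodeling cells, 1795 of 11655 in the adipogenesis-regulatory and 975 of 10374 in the lobular state. Without the low-count filter the counts were 13 in preadipocytes, 8 in ECM remodeling cells, 11 in the lobular state, 44 over the states and 8 in the interaction test. Calls over all genes rose as well, from 568 to 1598 of 19762 in preadipocytes and from 136 to 848 of 19876 in ECM remodeling cells. In the lobular state they rose from 260 to 717 of 17105, and in the interaction test from 1526 to 1956 of 22814. With the mouse as a block, in a fit without the normal libraries, 14 members were called in tumor against hyperplasia in place of 12, as given above by gene. The cause of these changes was not tested.

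Leaving out 1 library at a time, the count of members called ran from 0 to 5 over all fibroblasts under MPA+E, 4 to 12 in progenitors, 1 to 7 in preadipocytes, 0 to 7 in ECM remodeling cells, 2 to 8 in the adipogenesis-regulatory and 1 to 11 in the lobular state, 10 to 45 over the states, 2 to 16 in tumor against hyperplasia, 0 to 14 in hyperplasia against normal gland and 7 to 18 in tumor against normal gland. Counts over all genes also changed widely with the library left out. The ranges therefore do not set the members apart from other genes. The group that lost a library then had 1, which was taken to vary like the others.

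With 2 libraries per group the calls rest on few degrees of freedom, and 1 library per stage allowed no test. Ccl3, Ccl4, Ccl6, Ccl20 and Ccl24 stayed at or below 2.13 CPM in every library, and the part of depth in this was not tested. Calls past 2-fold between stages were counted once for each step that a member passed. Filters on mitochondrial share, doublets and other cells kept that count of calls at 26 to 29, against 28. Members with 1 highest state, counted in each set and added over the sets, gave 32 at either resolution, which does not show that they were the same members.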
